A study of Rattus norvegicus with 74 samples.

Results

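The mTORC1 pathway core genes are 10 genes listed by symbol: Mtor, Rptor, Mlst8, Akt1s1, Deptor, Tsc1, Tsc2, Rheb, Rps6kb1 and Eif4ebp1. All 10 were found once each among the 30560 genes of the count tables, and all 10 passed the low-count filter in every comparison. The set was chosen by name but selected on training results of these data too, namely the small unadjusted p-values for training of Tsc2 in the heart and of Rptor in isolated mitochondria. Training values in those sample types are therefore given below as a description only.

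All rats were male, wild-type and of the Wistar Kyoto strain, and were sampled at an age of 9 weeks. Trained rats (ExT) began motorised treadmill running at 5 weeks of age, 5 days a week for 4 weeks, building up to 60 min at 20 m/min, and sedentary rats (Sed) stood on a treadmill kept still. Tissue was collected 24 h after the last session, and every rat, trained or sedentary, had drunk water with 8% deuterium oxide. Libraries of 3 kinds were made. Whole red gastrocnemius (SM), a hindlimb muscle, gave 15 Sed and 15 ExT libraries. Mitochondria captured with an antibody from fresh red gastrocnemius of the same rats and purified with RNase-A and with proteinase-K (MT) gave 15 Sed and 15 ExT libraries. The left ventricle wall of the heart (LV) gave 7 and 7, from 14 of the 30 rats.

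Complex 1 of the mechanistic target of rapamycin (mTORC1) is a kinase complex at the lysosome that joins growth factor, amino acid and energy signals to protein synthesis. Growth factor signalling relieves the GTPase Rheb from the TSC complex, Rheb then activates the kinase, and the kinase phosphorylates ribosomal S6 kinase and the 4E-binding proteins to release translation. In skeletal muscle and heart the pathway is known for control of cell size. Its activity is set largely by phosphorylation and protein position, which counts of RNA do not measure.

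The RefSeq promoter table (build GRCr8) matched 7 of the 10 members by symbol: Mtor, Mlst8, Akt1s1, Tsc1, Tsc2, Rheb and Rps6kb1. The upstream 250 bases of the first entry per symbol are shown for the 3 whose window touches no annotated base of the gene itself. Of these, Mtor and Mlst8 are the 2 members with no called difference between heart and muscle. Rps6kb1 is a member that was lower in heart. Whether the windows relate to these levels was not tested, and the distance of each window to the gene start was not checked. They are Mtor at chr5:164167735-164167984 on the plus strand, Mlst8 at chr10:14008679-14008928 on the minus strand and Rps6kb1 at chr10:71865212-71865461 on the minus strand, written 5′ to 3′ on the strand of the gene. Capitals mark matches, on either strand, to a GC box with the letters GGGCGG, to the CCAAT box, to an E-box with the letters CACGTG, to an ETS motif with the letters CCGGAAG and to a TATA box with the letters TATAAA. Matches to different motifs could overlap.
Mtor: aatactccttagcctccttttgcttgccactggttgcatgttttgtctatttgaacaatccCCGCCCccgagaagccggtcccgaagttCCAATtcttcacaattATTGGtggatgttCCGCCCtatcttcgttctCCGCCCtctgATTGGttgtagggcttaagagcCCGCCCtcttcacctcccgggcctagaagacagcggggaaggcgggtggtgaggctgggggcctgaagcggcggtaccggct
Mlst8: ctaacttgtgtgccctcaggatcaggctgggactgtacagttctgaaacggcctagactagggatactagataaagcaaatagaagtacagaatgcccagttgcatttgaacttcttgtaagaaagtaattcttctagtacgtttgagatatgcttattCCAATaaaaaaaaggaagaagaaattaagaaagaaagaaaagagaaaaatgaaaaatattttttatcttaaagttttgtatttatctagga
Rps6kb1: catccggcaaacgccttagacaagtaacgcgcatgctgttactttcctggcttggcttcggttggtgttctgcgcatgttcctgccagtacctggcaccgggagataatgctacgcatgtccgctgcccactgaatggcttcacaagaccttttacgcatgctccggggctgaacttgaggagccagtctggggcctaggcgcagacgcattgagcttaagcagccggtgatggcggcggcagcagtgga
In the Mtor window there were 4 GC box matches and 3 CCAAT box matches. The Mlst8 window had 1 CCAAT box match, and the Rps6kb1 window had none of the 5 motifs. Among the 33469 promoter windows of the same length, 30.5% held a GC box, 34% a CCAAT box, 5.59% an E-box, 7.27% an ETS motif and 12.9% a TATA box. G and C made up 56.8% of the Mtor window, 32.8% of the Mlst8 window and 58% of the Rps6kb1 window, and the median over all windows was 51.2%. Of all windows, 66.7% held less G and C than that of Mtor, 3.44% than that of Mlst8 and 70% than that of Rps6kb1.

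Total counts per library were 19477976 to 39401323 in SM, 530397 to 9988027 in MT and 54645657 to 75758777 in LV. Genes of the mitochondrial genome took 12.9% to 95.4% of the MT counts, so that 430162 to 1055433 counts per MT library fell on nuclear genes. The members had 10 to 220 counts in an MT library, 198 to 5263 in an SM library and 345 to 6760 in an LV library, and none was at 0 in any library. The tissue labels were checked against marker genes, as counts scaled to a fixed total of nuclear-encoded counts (nuclear CPM). Markers of skeletal muscle fibres (8 of 9 listed found) summed to 133175 to 182135 nuclear CPM in SM and 5371 to 10918 in LV. Cardiomyocyte markers (7 of 7) summed to 35693 to 46063 in LV and 11.7 to 46.3 in SM, and the satellite cell markers Pax7 and Myf5 were at 0 in all LV libraries. In MT, muscle fibre markers summed to 662 to 3104 nuclear CPM, while 1252 of 1260 olfactory and vomeronasal receptor genes had counts, with a mean of 13.4 nuclear CPM per gene against 0.010 in SM. The part of such counts in the MT values of the members was not tested.

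In heart against muscle, 8 of the 10 members were lower in LV than in SM of the same 14 rats, and Mtor and Mlst8 did not differ by the test. The differences are log2 fold changes from edgeR's quasi-likelihood test with Benjamini-Hochberg adjustment over the 14707 genes tested, called at an adjusted p under 0.05. Of all genes, 85.5% were called in this comparison, 42.5% as lower and 43.0% as higher. The share of all genes without overlap between the tissues is not given here, so non-overlap of members is a description only. The median log2 fold change was -0.59 over the members and 0.01 over all genes tested. LV and SM libraries were made with different kits and RNA inputs, which cannot be told apart from the tissues. In whole tissue, fewer cells of a type and less RNA per cell cannot be told apart either.

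For the kinase itself and its small subunit no difference was called. Mtor was at 70.9, 83.1 and 94.7 CPM (lowest, median and highest library) in SM and at 72.0, 78.8 and 88.5 in LV, in CPM scaled by TMM (trimmed mean of M-values) over the libraries of this comparison. Its log2 fold change was -0.04 (SE 0.037, 95% interval -0.12 to 0.03). For Mlst8, which binds the kinase domain and is shared with mTORC2, the levels were 8.16, 11.7 and 14.1 CPM in SM and 10.0, 10.5 and 12.8 in LV, with a log2 fold change of -0.07 (interval -0.20 to 0.06). Both intervals include 0, and the groups overlapped for both genes.

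Rptor encodes raptor, the scaffold that brings substrates to the kinase. It was at 33.2, 38.4 and 44.1 CPM in SM and 24.6, 28.4 and 36.8 in LV, 0.751-fold in LV (log2 fold change -0.41, SE 0.046, adjusted p = 6.6e-10), and it was lower in LV in all rats but 1. Of the inhibitory subunits, Akt1s1 (PRAS40) stood at 34.0, 39.2 and 46.3 CPM in SM and 18.1, 19.2 and 21.7 in LV, with a log2 difference of -1.04 (SE 0.047, adjusted p = 4.4e-20). Deptor, the other inhibitor, stood at 101, 127 and 155 CPM in SM and 54.5, 63.3 and 86.6 in LV, with a log2 difference of -0.95 (SE 0.065, adjusted p = 4.6e-15). For each inhibitor, every LV library lay below every SM library. Counts of Deptor per count of Mtor averaged 1.57 ± 0.267 in SM (SD, n = 30) and 0.818 ± 0.101 in LV (n = 14), a ratio that does not depend on how libraries are scaled.

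Upstream of the kinase, Tsc1 had the largest difference of the 10 members between heart and muscle. It was the lowest of them in LV relative to SM under all 9 alternative settings too. Those settings reuse the same libraries and mostly shift all members much alike, so they add no independent support. Tsc1 encodes hamartin, which stabilises tuberin, the GTPase-activating subunit encoded by Tsc2. Its level was 33.4, 36.9 and 44.3 CPM in SM and 8.68, 10.0 and 12.97 in LV, so that no LV library reached the SM range (log2 fold change -1.85, SE 0.063, 3.60-fold lower in LV, adjusted p = 1.9e-23). Tsc2 differed far less, with 36.8, 45.6 and 51.6 CPM in SM and 30.8, 37.6 and 44.3 in LV (log2 fold change -0.23, SE 0.053, adjusted p = 0.00018), and its groups overlapped. In ExT rats alone the Tsc2 difference was -0.14 with an adjusted p of 0.075, and with scaling by library totals it was -0.004. Counts of Tsc1 per count of Tsc2 averaged 0.867 ± 0.0672 in SM and 0.277 ± 0.0284 in LV, with a highest LV value below the lowest SM value of 0.729. Rheb, the GTPase that the TSC complex switches off, was at 29.7, 35.0 and 44.1 CPM in SM and 19.5, 21.1 and 22.8 in LV (log2 fold change -0.77, SE 0.046, adjusted p = 1.2e-16), without overlap.

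The targets of the kinase differed in size of change. Eif4ebp1, which encodes the translation repressor 4E-BP1, was at 8.99, 13.8 and 21.7 CPM in SM and at 5.05, 5.77 and 6.81 in LV, 2.52-fold lower in LV (log2 fold change -1.33, SE 0.102, adjusted p = 1.8e-13). All LV libraries lay below all SM libraries. Rps6kb1, which encodes S6 kinase 1, was at 29.6, 36.2 and 39.1 CPM in SM and 27.8, 30.2 and 33.5 in LV (log2 fold change -0.22, SE 0.043, adjusted p = 2.1e-05), with overlap. Scaling by library totals moved the median of all genes to 0.24 and with it Mtor to 0.18, which was then called higher in LV, and Rps6kb1 to 0.008.

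**Figure D1:**
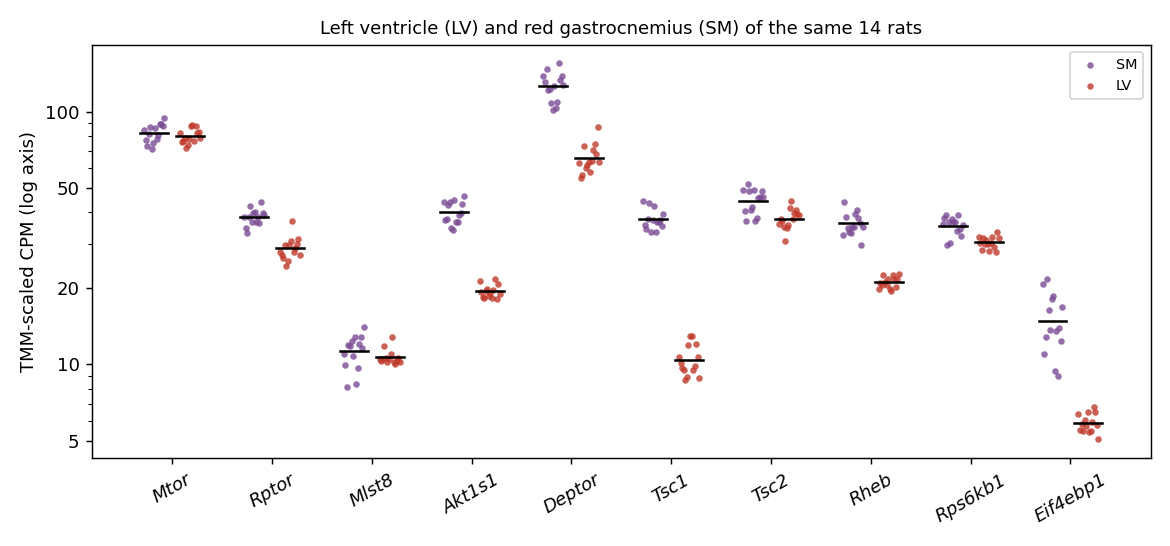
TMM-scaled CPM (log axis) of each member in the SM and LV libraries of the same 14 rats, 1 point per library, with a bar at the mean. Akt1s1, Deptor, Tsc1, Rheb and Eif4ebp1 do not overlap between the tissues, whereas Mtor and Mlst8 have LV points inside the SM range. The share of all genes without overlap is not given here.

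The other genes of the pathway, taken from 7 lists of 74 symbols of which 69 are in the tables, went in both directions between heart and muscle. Of 67 identifiers tested, 51 were called, 16 higher and 35 lower in LV, beside 85.5% of all genes called, 43.0% higher and 42.5% lower. Their median log2 fold change was -0.20. In the insulin and growth factor list all 10 genes were called, 5 in each direction. Akt1, a kinase that phosphorylates tuberin and PRAS40, was higher in LV (0.66, SE 0.055) and Akt2, its paralog of insulin signalling, was lower (-1.76, SE 0.051). Pik3r1, the regulatory subunit of PI3-kinase, was higher (1.15) and the insulin receptor substrate Irs1 was lower (-1.93). Of 22 amino acid sensing genes, 5 were higher and 12 lower, among them the Rag GTPase Rraga at -2.64 and Castor2, which binds the GATOR2 complex, at -1.92, against Nprl2 at 0.69 and Lamtor3 at 0.33. Of the single tested gene of the TSC and Rheb list, Tbc1d7, the third subunit of the TSC complex, was lower (-0.94, SE 0.076).

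Energy and stress genes were called in 6 of 10 cases, 5 of them lower, with Ddit4l at -3.18 and the AMPK subunit Prkab2 at -1.18 against Sesn1 at 0.47. Of 10 translation targets, 7 were lower in LV and 2 higher. The elongation factor 2 kinase gene Eef2k was at -2.18 and Eif4ebp3, a paralog of Eif4ebp1, at -0.91, whereas Eif4e, the cap-binding protein that 4E-BPs hold, was at 0.29 and Eef2 at 0.24. Srebf1 (-2.29) and Tfeb (-1.95), transcription factors downstream of mTORC1, were lower, and Hif1a (0.19) was higher. The mTORC2 and assembly list had 3 of 7 called, Rictor at 0.56, Tti1 at 0.16 and Prr5 at -1.22.

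Isolated mitochondria were compared with the whole muscle of the same 30 rats. The change of the members from SM to MT was below that of the median gene. The median log2 fold change was -1.43 over the members and 3.20 over the 26858 genes tested. By level in nuclear CPM, members lay at percentiles 62.9 (Eif4ebp1) to 99.2 (Mtor) of 23083 protein-coding genes in MT. In SM they lay at percentiles 72.6 (Mlst8) to 97.4 (Deptor). With TMM scaling all 10 members were called lower in MT, where 96.7% of all genes were called, 67.1% higher and 29.6% lower. The sign of most members depended on the scaling, and the MT libraries were also made from less RNA (10 ng against 50 ng), which cannot be told apart from the isolation. Log2 fold changes of 6 members became positive with library totals (Mtor 0.34, Rptor 0.92, Mlst8 1.16, Tsc1 0.31, Tsc2 0.94, Eif4ebp1 0.32), and those of 3 did so with libraries thinned to equal nuclear counts (Rptor 0.34, Mlst8 0.62, Tsc2 0.40). All 130 values, from 10 members under 13 settings, were below the median of all genes in the same setting, where 50% of genes are by construction. The settings reuse the same libraries, so these values are not independent. That median is over genes of any level in SM, and the share among genes of levels like the members was not tested. The low-count filter passed 26858 genes here and 13570 in the SM libraries alone, so many genes entered through their MT counts.

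Deptor was the lowest member and Mlst8 the highest in all 13 settings. The settings reuse the same libraries and mostly shift all members much alike, so the stable order is no independent support. Deptor was at 139, 197 and 239 CPM (lowest, median, highest) in SM and 9.33, 17.2 and 21.5 in MT on the TMM scale of this comparison, with a log2 difference of -3.54 (SE 0.065, adjusted p = 2.5e-61). As nuclear CPM it averaged 171 ± 25.6 in SM and 66.9 ± 11.7 in MT (SD, n = 30 each), lower in MT in 30 of 30 rats, and it was the only member with a mean nuclear CPM lower in MT. Counts of Deptor per count of Mtor averaged 0.365 ± 0.0788 in MT against 1.57 ± 0.267 in SM, and the ranges did not overlap.

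Among the other members of the complex, Mtor had a log2 fold change of -1.42 (SE 0.043), Rptor of -0.81 (SE 0.051) and Mlst8 of -0.58 (SE 0.071) with TMM scaling. As nuclear CPM the same genes were higher in MT in 30 of 30 rats. On that scale the median protein-coding gene was at 1.51 in SM and 30.8 in MT, so a higher value in MT is not particular to these genes. Mtor averaged 109 ± 9.83 in SM and 186 ± 23.6 in MT. Rptor averaged 51.5 ± 4.34 in SM and 134 ± 23.3 in MT, and Mlst8 15.2 ± 1.87 and 46.3 ± 10.97. The direction thus differed between the scales for each of these 3 genes. With size factors by the RLE method in place of TMM, Mlst8 was at -0.05 and no longer called. Akt1s1 was at -2.04 (SE 0.060) with TMM, and at 53.8 ± 5.45 nuclear CPM in SM and 59.4 ± 11.9 in MT, higher in MT in 20 of 30 rats.

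Of the upstream members, Tsc1 had a log2 fold change of -1.44 (SE 0.051), Tsc2 of -0.82 (SE 0.049) and Rheb of -2.01 (SE 0.059) with TMM scaling. Tsc2 was at 59.5 ± 5.53 nuclear CPM in SM and 154 ± 22.3 in MT, and Tsc1 at 51.3 ± 3.33 and 86.7 ± 13.8, each higher in MT in all 30 rats. Rheb was at 48.5 ± 4.56 and 54.7 ± 12.4 nuclear CPM, higher in 19 of 30. Counts of Tsc1 per count of Tsc2 averaged 0.572 ± 0.102 in MT, between the 0.867 of SM and the 0.277 of LV. The targets Rps6kb1 and Eif4ebp1 had log2 fold changes of -1.70 (SE 0.063) and -1.35 (SE 0.108) with TMM. As nuclear CPM, each was higher in MT in 29 of 30 rats. The median protein-coding gene was also higher in MT on that scale (1.51 in SM, 30.8 in MT).

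**Figure D2:**
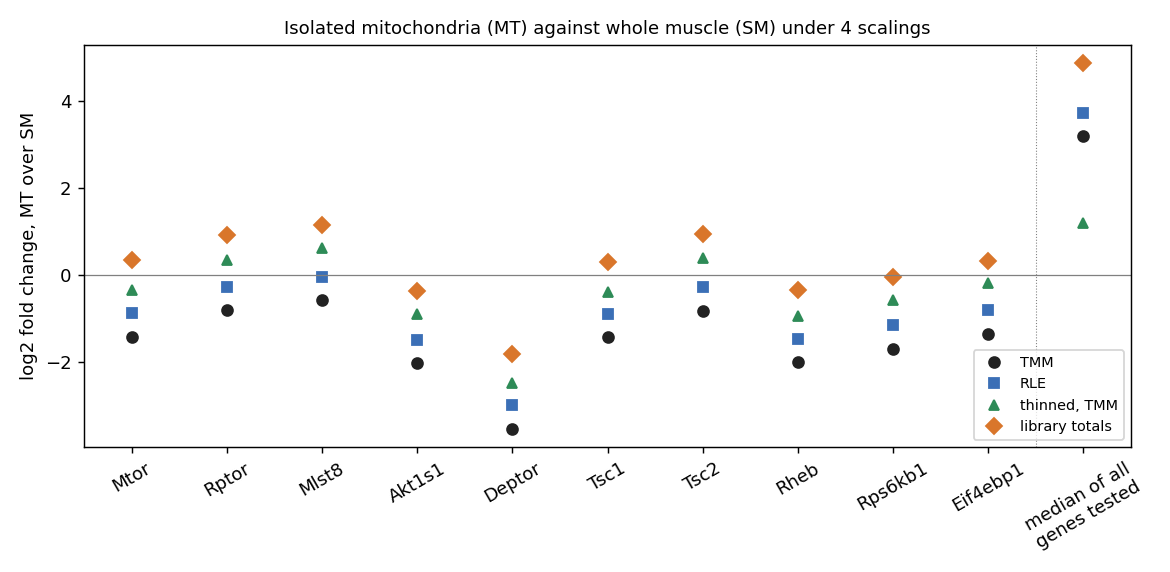
Log2 fold change of MT over SM for each member and for the median of all genes tested, under 4 scalings. Deptor is the lowest and Mlst8 the highest member under each scaling, at -3.54 and -0.58 with TMM, and every member lies below the median gene. Scalings shift all members much alike, and the median is over genes of any level in SM.

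Of the 69 further pathway identifiers tested in MT against SM with TMM scaling, 68 were called, 11 higher and 57 lower, beside 96.7% of all genes called. These directions carry the same dependence on scaling. The symbol Rps6, a substrate of S6 kinase as a protein, stands for 2 identifiers that were at -5.12 and 5.91, and reads may be shared between near-identical copies, so its values are uncertain. Next to it, Eif4g1, the scaffold of the cap-binding complex, was at -4.30 and Prkaa2, the catalytic AMPK subunit, at -4.86. Depdc5, a subunit of the GATOR1 complex that restrains mTORC1, was at 1.09, and the Rheb paralog Rhebl1 at 4.22, the latter above the median of all genes.

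Training was compared within each kind of library. In whole muscle, which the choice of the members did not use, 0 of 10 members were called at an adjusted p under 0.05 by edgeR, and 0 by DESeq2. Over all genes 28 of 13570 were called by edgeR, 0.206%. The median log2 fold change over the members was -0.02, against -0.01 over all genes tested. One member, Rps6kb1, had an unadjusted p under 0.05, where 13.7% of all genes did.

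Rps6kb1 was at 27.5, 35.2 and 47.1 CPM in SM_Sed and 26.2, 32.0 and 36.4 in SM_ExT, in CPM scaled by TMM within the SM table (log2 fold change -0.14, SE 0.063, adjusted p = 0.33). Only 2 of 15 trained rats lay above the sedentary median. In rats numbered 2 to 16 the log2 fold change was -0.28 and in rats numbered 17 to 32 it was -0.01, neither called. Mtor was at 66.6, 72.2 and 81.2 CPM in SM_Sed and 66.3, 75.9 and 88.3 in SM_ExT (0.08, SE 0.041, interval -0.001 to 0.17, adjusted p = 0.37). Trained rats lay above the sedentary median in 13 of 15 cases. Eif4ebp1 had the widest interval, -0.49 to 0.05 around -0.22 (SE 0.131). With the range of rat numbers as a covariate in edgeR it was at -0.23 with a smaller SE of 0.085, and not called (adjusted p = 0.21).

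Deptor was at 84.3, 122 and 146 CPM in SM_Sed and 77.4, 117 and 145 in SM_ExT, a log2 fold change of -0.08 (SE 0.081). Its value was -0.28 in rats 2 to 16 and 0.10 in rats 17 to 32, so the sign differed between the ranges of rat numbers, with no call in either. The remaining 6 members (Rptor, Mlst8, Akt1s1, Tsc1, Tsc2, Rheb) had log2 fold changes of -0.05 to 0.02, and the ends of their intervals reached from -0.14 to 0.14. Beside these values, the summed nuclear CPM of 5 endothelial markers was 399 to 929 in SM_Sed and 628 to 1002 in SM_ExT. All 5 had an unadjusted p under 0.05, with a median log2 fold change of 0.21, and 0 were called. Such a p was also found for 4 of 8 muscle fibre markers (log2 fold changes of all 8 from -0.38 to 0.50), 2 of 5 macrophage and leukocyte markers (median of the 5, -0.26), 1 of 4 Schwann cell and nerve markers and 1 of 2 red blood cell markers tested, with 0 called. Summed levels in SM_Sed and SM_ExT were 133175 to 182135 and 138913 to 170477 nuclear CPM for muscle fibres and 39.1 to 142 and 39.7 to 78.2 for macrophages and leukocytes. For Schwann cells and nerve they were 7.14 to 124 and 23.9 to 162, and for red blood cells 39.02 to 148 and 41.7 to 202. The part of these markers in the values of the members was not tested.

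In the heart, Tsc2 is one of the values by which the set was chosen. It was at 38.2 CPM in the median LV_Sed rat, with a range of 33.8 to 40.7, and at 42.3 in the median LV_ExT rat, with a range of 40.5 to 47.6, in CPM scaled by TMM within the LV table. All but 1 of the trained rats, 6 of 7, lay above the highest sedentary rat, and the lowest trained rat (40.5) lay just below it. The means were 38.2 ± 2.27 and 43.4 ± 2.46 (SD, n = 7 each), a log2 fold change of 0.19 (SE 0.047). Leaving out each LV library in turn gave 0.16 to 0.20, which reuses the values behind the choice and adds no support. The unadjusted p behind the choice was 0.000976, and the adjusted p over all genes was 0.80.

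No gene was called for training in LV by edgeR (0 of 14488, 0%) or by DESeq2, members included. An unadjusted p under 0.05 was found for 3 members (Tsc2, Rptor, Mtor), all with higher values in ExT, where 5.9% of all genes had one and 3.41% had one with a higher value in ExT. Nothing further is read from these counts, because the rule used this contrast. Rptor was at 27.001, 29.1 and 32.1 CPM in LV_Sed and 28.99, 33.0 and 39.6 in LV_ExT (0.15, SE 0.063). Mtor was at 79.1, 84.2 and 87.4 CPM in LV_Sed and 82.5, 90.1 and 95.3 in LV_ExT (0.11, SE 0.044), with 5 of 7 trained rats above the highest sedentary one. Deptor (0.16, SE 0.078) and Tsc1 (0.14, SE 0.094) also had higher means in ExT, with overlapping groups. The remaining 5 members (Mlst8, Akt1s1, Rheb, Rps6kb1 and Eif4ebp1) had log2 fold changes of -0.02 to 0.01. Cardiomyocyte markers summed to 35693 to 43022 nuclear CPM in LV_Sed and 37697 to 46063 in LV_ExT, and 0 of 7 were called.

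In isolated mitochondria, Rptor is the other value behind the choice. It was at 39.8, 62.7 and 88.3 CPM in MT_Sed and at 41.9, 50.0 and 57.9 in MT_ExT, in CPM scaled by TMM within the MT table. None of the 15 trained rats reached the sedentary median, although the ranges overlapped, and the spread was wider in Sed (61.1 ± 11.2) than in ExT (50.9 ± 4.84). The log2 fold change was -0.27 (SE 0.076), with an unadjusted p of 0.000681 and an adjusted p of 1.00. Within rats 2 to 16 it was -0.29 and within rats 17 to 32 it was -0.25, parts of the same values behind the choice and no replication. The Rptor values rest on 50 to 165 counts per MT library.

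Over all genes, 0 of 19281 were called for training in MT by edgeR (0%), and 0 by DESeq2. Rptor was the single member with an unadjusted p under 0.05, and 4.73% of all genes had one. The other 9 members had log2 fold changes from -0.09 (Tsc1) to 0.16 (Rps6kb1), with standard errors of 0.069 to 0.132.

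**Figure D3:**
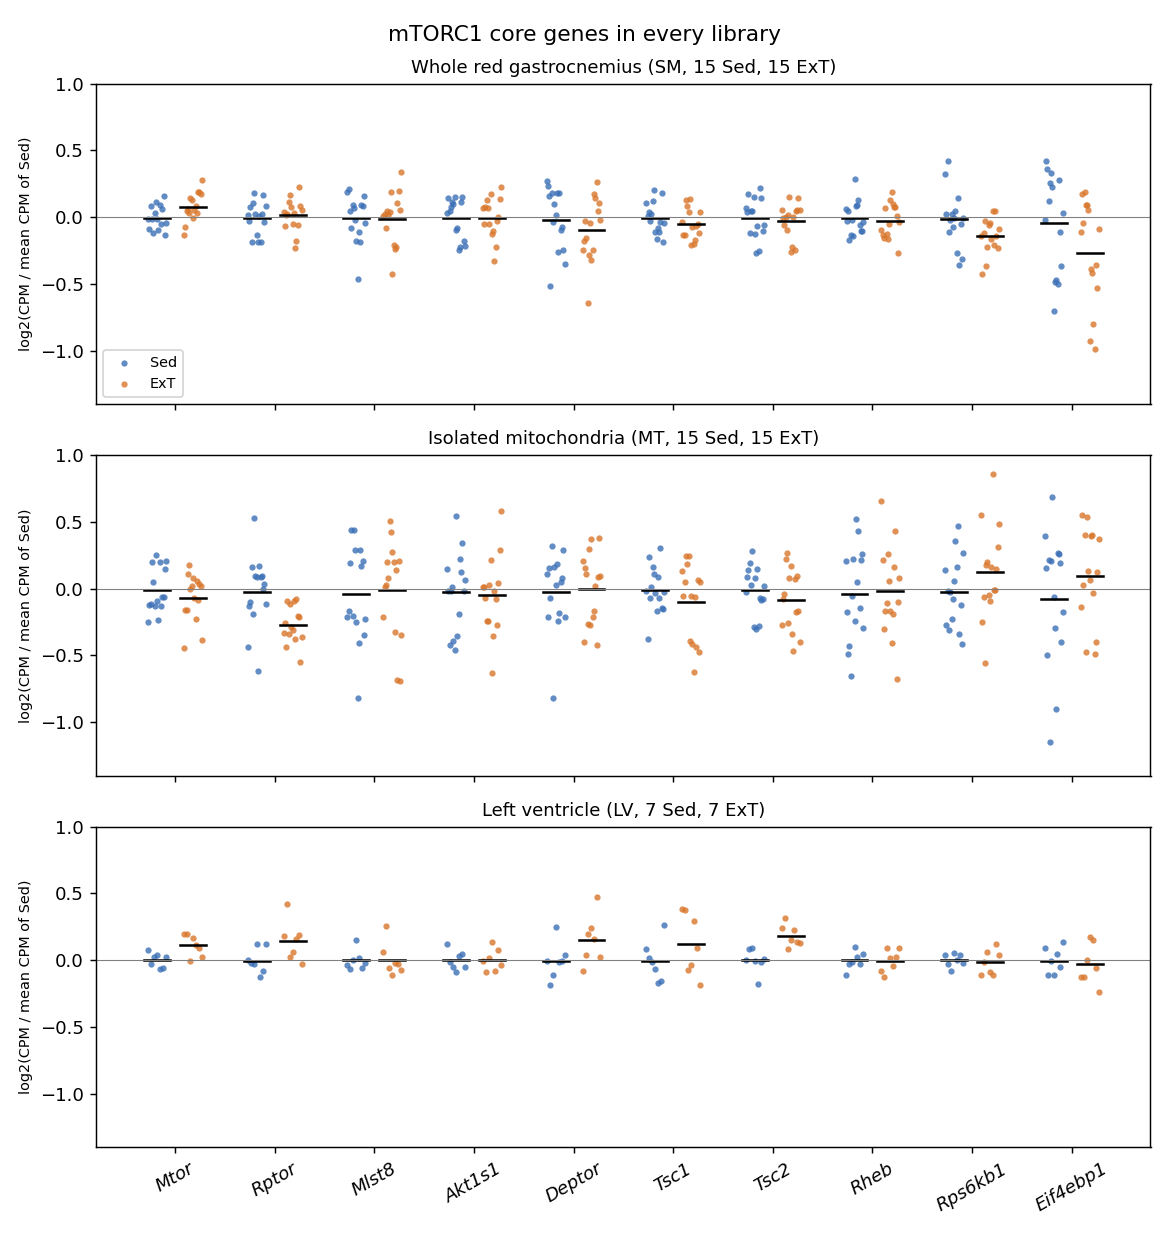
Level of each member in every library as log2 of its TMM-scaled CPM over the mean CPM of the Sed libraries of the same kind, with bars at the group means. Rptor in MT_ExT lies below the MT_Sed mean in all 15 libraries, Tsc2 in LV_ExT lies above the LV_Sed mean in all 7, and points spread most in MT.

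**Figure D4:**
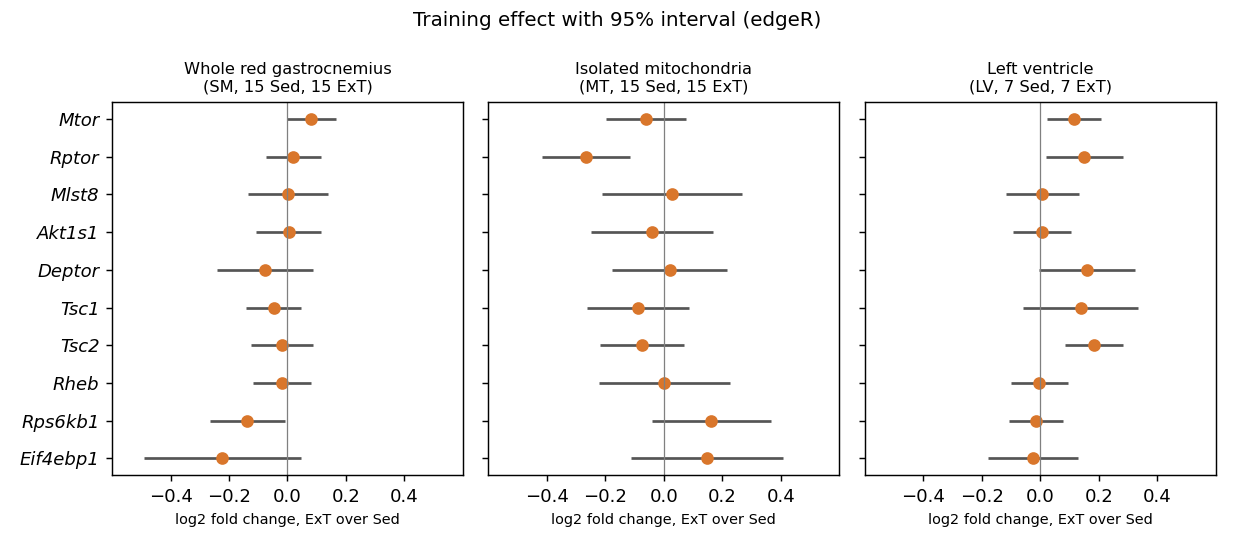
Training effect of each member as a log2 fold change of ExT over Sed, with 95% intervals from edgeR, in SM, MT and LV. The intervals clear of 0 are those of Rps6kb1 in SM, Rptor in MT and Tsc2, Rptor and Mtor in LV, none of them called after adjustment.

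Of the further pathway genes, 0 of 67 were called for training by edgeR in SM, in MT or in LV. An unadjusted p under 0.05 was found for 3 in SM, 2 in MT and 6 in LV, beside 13.7%, 4.73% and 5.9% of all genes, and DESeq2 called 0 in each. Those in SM were Flcn, which acts on Rag GTPases (0.21, SE 0.061), Ddit4l (0.27, SE 0.0997) and Prkab2 (-0.27, SE 0.126), with adjusted p-values of 0.12, 0.22 and 0.34. They are named because of their small p, after the values were seen.

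Whether training effects differed between sample types was tested with an interaction term. Between MT and SM, 0 of 10 members were called by edgeR and by DESeq2, and 0.0181% of all genes were. Rptor had a difference of -0.31 (SE 0.098, adjusted p = 0.32) in a joint fit of both kinds of library, and its MT part was used in choosing the set. Mtor (-0.17) and Rps6kb1 (0.28) also had an unadjusted p under 0.05, where 8.5% of all genes did. Between LV and SM of the same 14 rats, 0 members were called, 0 had an unadjusted p under 0.05, and 0 of 15049 genes (0%) were called by edgeR, with an unadjusted p under 0.05 in 4.57% of them, and 3 by DESeq2. Tsc2 had a difference of 0.19 (SE 0.101, interval -0.01 to 0.40, adjusted p = 1), and its LV part was used in choosing the set.

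Rats numbered 2 to 16 and 17 to 32 differed in muscle in many genes, and Eif4ebp1 was among them. The split was kept because an earlier look at these counts had found that the ranges differ, so calls between them are a description only. What the numbers stand for is not given in the labels. Both ranges hold nearly equal numbers of Sed and ExT rats (7 of each in the earlier, 8 of each in the later). Of 13828 genes tested in SM, 12.5% were called, and 3 of 10 members were, all lower in rats 17 to 32, as were 6.78% of all genes. Eif4ebp1 was at 15.4, 18.4 and 22.3 CPM in the 14 earlier rats and at 8.39, 12.2 and 20.2 in the 16 later ones. In 13 of the 16 later rats it was below the lowest earlier rat, and the share of all genes so placed is not given here. The log2 fold change was -0.56 (SE 0.085, adjusted p = 5.6e-05), with means of 18.6 ± 2.02 and 12.7 ± 3.10 CPM. It was -0.61 in ExT rats alone and -0.51 in Sed rats alone, where the adjusted p was 0.063.

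Akt1s1 (-0.15, SE 0.049, adjusted p = 0.044) and Tsc1 (-0.13, SE 0.041, adjusted p = 0.034) were lower by less. Neither was called in either arm alone, with library totals or without the low-count filter. Rheb had a value of 0.11 (adjusted p = 0.087), and it was called with library totals. In MT of the same rats 0 members were called, against 1.58% of genes, and Eif4ebp1 was at -0.17 (SE 0.130). Its MT levels were 7.23 to 25.8 CPM in the earlier and 8.57 to 21.2 in the later rats. Of the further pathway genes 13 of 67 were called in SM, 5 higher and 8 lower in the later rats, beside 12.5% of all genes called. The Ragulator subunits Lamtor1 (-0.35) and Lamtor2 (-0.27), which anchor Rag GTPases at the lysosome, were lower, and the Rag GTPase Rragc (0.19) was higher.

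**Figure D5:**
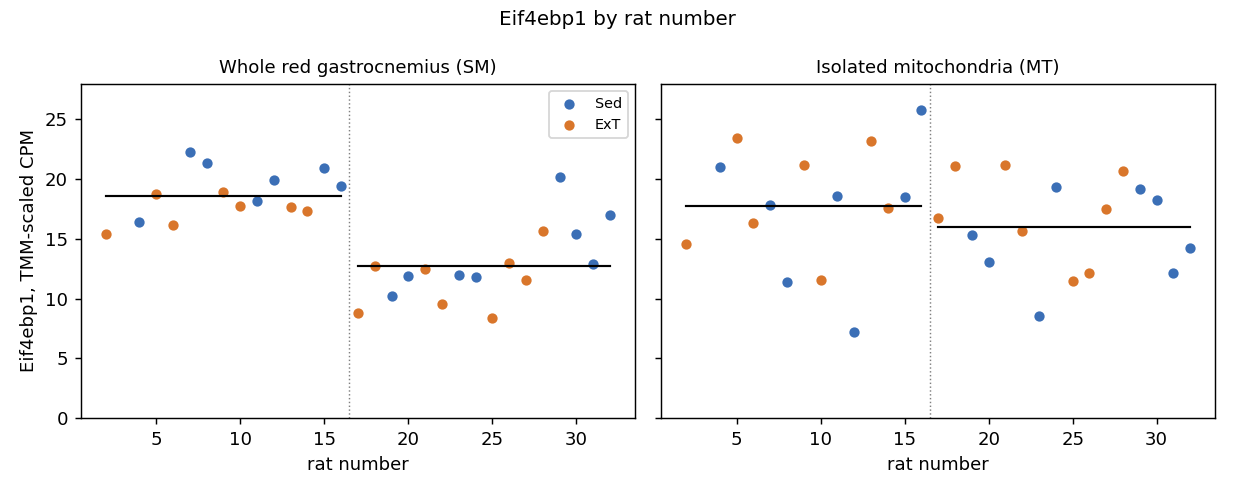
Eif4ebp1 in TMM-scaled CPM against rat number in SM and MT, 1 point per library coloured by arm, with a bar at the mean of rats 2 to 16 and of rats 17 to 32. In SM the mean is 18.6 CPM in the earlier and 12.7 in the later rats, and in MT the points of both ranges overlap.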

How the data were processed

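Counts per gene, whole numbers, were deposited by the authors as 3 tables (SM, MT, LV) of 30560 genes with Ensembl identifiers. Per the submitters' processing notes, FastQC 0.74, cutadapt 4.6, STAR 2.7.11a, HTSeq and the build mRatBN7.2 were used. The annotation version and strand setting are not given in the sources used here. Per the labels' protocols, SM (50 ng RNA) and MT (10 ng) libraries used a Zymo ribosomal depletion kit and LV (100 ng) an Illumina Ribo-Zero kit.

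Libraries were grouped by title. Genes passing filterByExpr were tested on the deposited counts in edgeR 4.0.16 by quasi-likelihood (glmQLFTest, limma 3.58.1 and R 4.3.3), with TMM scaling and robust dispersions, and p-values were Benjamini-Hochberg adjusted over all genes tested and called under 0.05. The 9 comparisons were training in SM, MT and LV, MT minus SM, LV minus SM, the training effect of MT and of LV minus that of SM, and the ranges of rat numbers in SM and MT. Intervals are at 95%, and errors after ± are SDs. A floor set by choice at 3 counts was 2.84 to 6.97 nuclear CPM in MT, and such floors cover counting error only. Apart from percentiles among protein-coding genes, levels of different genes were not compared, since transcript lengths were not used.

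Test code was first run on simulated counts with the same dispersion for all genes and kinds of library. For MT or LV against SM, the real differences between the kinds were removed from those counts. The run checks the code and not how the tests behave on the real MT libraries. Alternatives were RLE factors, library totals, no filter, no mitochondrial-genome genes, DESeq2 1.42.0, ranges of rat numbers, single arms, a replicate block, thinning and leaving out LV libraries. Members, pathway lists, marker lists and the ranges of rat numbers were chosen with earlier results of these data known. All members are named; of each pathway list up to 2 called genes per direction with the smallest adjusted p were eligible to be named in a comparison. Symbols Rragb, Fnip1, Seh1l, Kptn and Eif4b of the pathway lists were not matched. Libraries of the same number come from the same rat, per the titles. The median correlation of deviations between libraries of the same rat was 0.0165 for MT and SM (9514 genes, 30 rats), against 0.000478 for different rats, and 0.0344 for LV and SM (12131 genes, 14 rats), against -0.00876. One gene of the pathway lists is not reported here by name.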

Additional observations from a re-analysis of the deposited data

Results flagged for a closer look

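In the 20 groups of 7 LV libraries (10 members in 2 arms), 2 members had a library that stood apart, its gap to the nearest library exceeding 0.568 of the range of its group. Chance alone sets 1 library apart in about 1 in 20 such groups. Tsc2 was at 33.8 CPM in LV_Sed rat 30, below the 37.7 to 40.7 CPM of the other 6 sedentary rats. Its gap, 0.5681 of the range, only just passed the threshold. Without that rat, the training difference of Tsc2 in LV was 0.16, against 0.19 with it. Mlst8 was at 12.8 CPM in LV_Sed rat 29, above the 11.1 to 11.7 CPM of the others.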

How the results depend on the processing

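Of 880 values of the members under alternative settings, 851 kept their side of the threshold without reversing a called value. A further 17 lost the call, 1 gained it and 11 reversed. Reversed means a change of sign with a call in either setting, so it includes values that gained or lost the call. Among the 851 were 66 values, uncalled in either setting, that differed in sign. All training and interaction values of the members stayed uncalled. In MT minus SM, library totals reversed Mtor (0.34), Rptor (0.92), Mlst8 (1.16), Tsc1 (0.31), Tsc2 (0.94) and Eif4ebp1 (0.32) and left 4 members called. Thinning reversed Rptor (0.34), Mlst8 (0.62) and Tsc2 (0.40) and left 13877 of 14867 genes called, fewer genes being tested. In LV minus SM, library totals reversed Mtor (0.18), which gained a call, and Rps6kb1 (0.0075), which lost its call. Training in SM called 118 genes with DESeq2, 43 with the rat range as a covariate, 396 in rats 2 to 16, 1 in rats 17 to 32 and 1 in the 14 rats with LV, against 28. The interaction of MT and SM called 0 genes with library totals, 33 with DESeq2, 20 in rats 2 to 16, 1 in rats 17 to 32 and 3 with the replicate block, against 5, and that of LV and SM called 3 with DESeq2, against 0. The replicate block changed no other call of the members. For the rat ranges in SM, 1 member was called without the filter, 0 in Sed and 1 in ExT rats, against 3, and 35 genes were called in Sed rats, against 1724. In MT, 0 genes were called with library totals, 5 in Sed and 0 in ExT rats, against 323. The cause of these shifts was not tested. Depth limits MT most, where a member rested on as few as 10 counts.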
